A study of Caenorhabditis elegans with 2 samples.

Results

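Dense core vesicles carry neuropeptides, and 6 genes of this pathway were examined for binding of the ZEB-type transcription factor ZAG-1 in the nematode Caenorhabditis elegans. The genes were a named list, egl-3, egl-21, sbt-1, ida-1, unc-108 and unc-31, drawn up with earlier results of these data known, out of 19973 protein-coding genes on the 6 nuclear chromosomes of the WBcel235 (ce11) annotation. A region was assigned to a gene when its summit, the position of highest signal, lay between 5000 bp upstream of the gene start and the gene end. Binding had been mapped by ChIP-seq, the sequencing of DNA recovered with an antibody, in entire L4 larvae of strain OP83, genotype unc-119(ed3) III; wgIs83, with males and females pooled. All worms carried the unc-119(ed3) allele and the wgIs83 insertion, and the labels describe the target as eGFP-zag-1 but give the antibody as zag-1. Whether untagged ZAG-1 was recovered together with the tagged protein is therefore not known. DNA fragments were of 150 to 350 bp. There was 1 group of 2 biological replicates, with no second condition and no control sample used here, and the labels do not give the promoter of the transgene.

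Neuropeptides are made as long precursors that are cut and trimmed inside the vesicle before release. EGL-3 is a proprotein convertase that cuts precursors at basic residues, SBT-1 is a 7B2-like chaperone of that convertase, and EGL-21 is a carboxypeptidase that removes the basic residues left behind. IDA-1 is a phosphatase-like membrane protein of the vesicle, UNC-108 is the small GTPase RAB-2, which acts in vesicle maturation, and UNC-31 is the CAPS protein, which acts in vesicle release. ZAG-1 is known for its part in neuron differentiation.

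The sequences below are those of the regions on which the results turn, within 100 bp of each summit, because the list of regions alone does not show what lies there. They are read from the RefSeq copy of WBcel235 and written 5′ to 3′ on the strand of the named gene. Capitals mark matches, on either strand, to 5 words. These are CAGGTA with its variant CAGGTG, the GA repeat GAGAGA, the CA repeat CACACA, the word CGTCTC, and the word ACGCAG. The sbt-1 sequence is shortened to 185 bases so that it stops before the 5′ UTR. Sequence at unc-108 is not shown.
egl-3, proximal upstream peak (chrV:10174766-10174966, minus strand): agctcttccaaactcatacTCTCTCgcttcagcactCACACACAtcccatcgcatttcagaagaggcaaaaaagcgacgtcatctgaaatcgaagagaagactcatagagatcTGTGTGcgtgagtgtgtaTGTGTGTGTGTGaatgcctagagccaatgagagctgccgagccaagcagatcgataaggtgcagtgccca
egl-3, distal upstream peak (chrV:10178262-10178462, minus strand): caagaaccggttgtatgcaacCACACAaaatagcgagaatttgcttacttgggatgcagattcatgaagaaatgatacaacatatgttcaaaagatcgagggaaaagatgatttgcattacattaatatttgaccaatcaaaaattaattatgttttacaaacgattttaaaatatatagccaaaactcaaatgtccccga
unc-31, upstream region (chrIV:12771430-12771630, plus strand): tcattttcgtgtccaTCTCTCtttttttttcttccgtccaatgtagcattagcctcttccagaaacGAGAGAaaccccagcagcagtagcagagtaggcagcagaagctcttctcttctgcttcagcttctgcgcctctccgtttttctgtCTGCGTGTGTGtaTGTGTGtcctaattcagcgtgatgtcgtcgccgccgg
egl-21, upstream region (chrIV:10481964-10482164, minus strand): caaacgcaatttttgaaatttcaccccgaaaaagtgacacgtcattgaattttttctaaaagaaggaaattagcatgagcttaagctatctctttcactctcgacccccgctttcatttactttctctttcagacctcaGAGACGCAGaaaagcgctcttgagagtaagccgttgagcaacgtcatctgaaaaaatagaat
ida-1, upstream region (chrIII:5755214-5755414, plus strand): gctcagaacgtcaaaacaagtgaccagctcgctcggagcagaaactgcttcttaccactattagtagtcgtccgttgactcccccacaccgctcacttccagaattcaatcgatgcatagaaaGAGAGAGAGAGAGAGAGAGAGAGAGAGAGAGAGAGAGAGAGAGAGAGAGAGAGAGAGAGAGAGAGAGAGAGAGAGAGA
ida-1, intronic region (chrIII:5760366-5760566, plus strand): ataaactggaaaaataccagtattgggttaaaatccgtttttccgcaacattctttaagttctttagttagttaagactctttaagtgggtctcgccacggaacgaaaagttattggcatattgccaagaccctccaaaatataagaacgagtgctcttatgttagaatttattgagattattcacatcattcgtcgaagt
sbt-1, upstream region of replicate 2 (chrV:20828882-20829066, minus strand): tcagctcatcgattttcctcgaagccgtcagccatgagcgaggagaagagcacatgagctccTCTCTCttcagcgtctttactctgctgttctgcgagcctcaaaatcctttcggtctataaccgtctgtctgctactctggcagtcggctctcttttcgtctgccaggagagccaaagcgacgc

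In these sequences the proximal egl-3 peak held 7 matches to CACACA, some overlapping. The ida-1 upstream sequence held a run of 37 overlapping copies of GAGAGA that reached the edge of the bases shown. The ida-1 region itself extends beyond that edge. The unc-31 upstream region held 2 matches to GAGAGA, 2 to CACACA and 1 to ACGCAG. The intronic ida-1 region and the distal egl-3 peak held 0 and 1 matches.

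The authors deposited 4 lists in the ce11 build. They hold 11750 regions for replicate 1, 30000 for replicate 2, 4010 for the replicates pooled, and 246 peaks kept by the irreproducible discovery rate (IDR) analysis, which are the 246 strongest of the pooled list. Signal is the score of the authors' peak caller, and its scale differs between lists (median 14.8 in replicate 1 and 7.95 in replicate 2), so each region is given by its rank within its own list. The pooled and replicate lists are described by the submitters as holding background as well as peaks, with −log10 q down to 0.0167, 0.0177 and 0.132, so a listed region outside the IDR set is not by itself a binding site. Read depth is unknown, and a peak score has no replicate error. No test was made over the 6 genes, and all counts below are set beside the share of all protein-coding genes.

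Of the 6 genes, egl-3 and unc-108 had an IDR peak, with 2 and 1 peaks. Over all protein-coding genes, 2.21% (442 of 19973) had an IDR peak in a window built the same way. Because the list was drawn up with such results known, its shares describe these genes and are no independent evidence that they differ from other genes. In the pooled list, 5 of 6 genes had a region, against 25.2% of all genes, and sbt-1 had none. That share rose with window length. It was 26.0% for windows of 7 to 10 kb (egl-3, egl-21 and unc-108) and 53.8% for 15 kb or more (ida-1 and unc-31). For replicate 1 regions the shares in these ranges were 59.8% and 88.1%. Replicate 1 had a region at 5 of 6 genes, against 57.2%, and replicate 2 at 6 of 6, against 86.3%, so presence in the replicate 2 list alone says little about a gene. In whole worms, a site bound in few cells and a site bound weakly in many cannot be told apart.

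**Figure D1:**
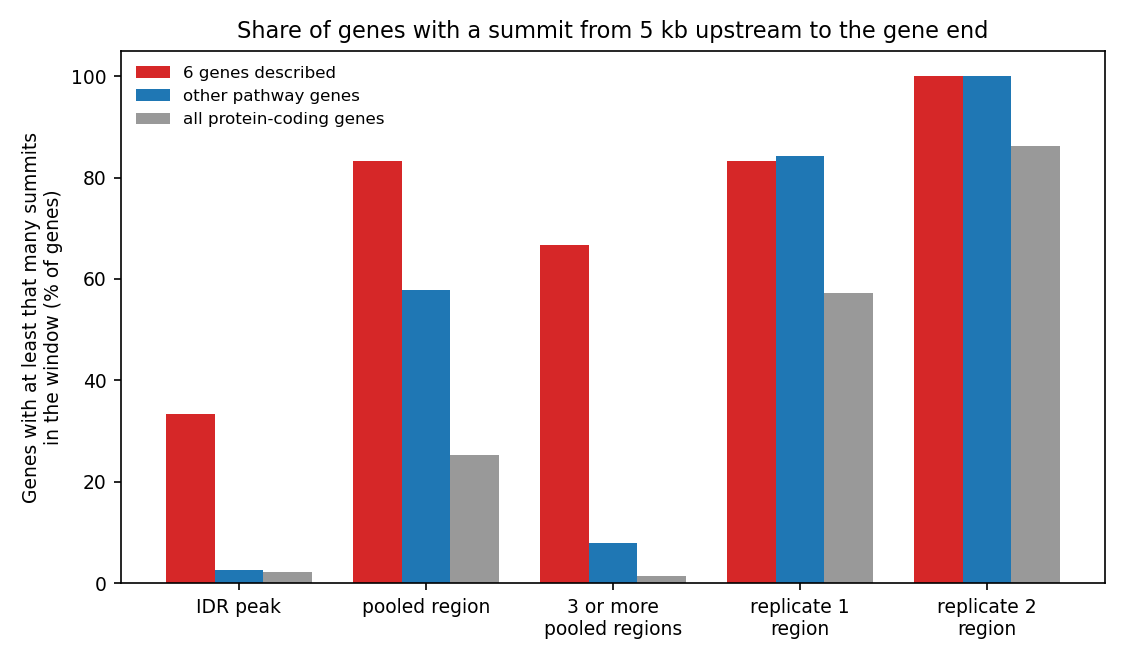
Share of genes with a summit in the window from 5 kb upstream of the start to the gene end, as a percentage of the genes in each set (bars from 0, no error bars because each set is complete), for the 6 genes, 38 other pathway genes and all protein-coding genes. The 6 genes stand at 33.3% for IDR peaks and 83.3% for pooled regions, all protein-coding genes at 2.21% and 25.2%, and the sets come closest in the replicate 2 list, at 100% against 86.3%. The sets are not matched for window length.

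Several regions lay together at most of these genes. The pooled list had 4 regions at unc-108, 4 at ida-1, 3 at egl-21, 3 at unc-31 and 2 at egl-3, whereas the median gene had 0. At least 3 pooled regions were thus present at 4 of 6 genes, a limit chosen after the values were seen, against 1.41% of all genes. Window length differed, from 6.17 kb at sbt-1 to 19.5 kb at unc-31, with a median of 9.10 kb against 7.03 kb over all genes. Among the 6884 genes with windows of 7 to 10 kb, the range of egl-3, egl-21 and unc-108, 1.13% had 3 or more pooled regions and 2.16% an IDR peak. For the 998 genes with windows of 15 kb or more, such as ida-1 and unc-31, these shares were 9.42% and 4.21%. Per kb of window the 6 genes held 0.237 pooled regions, and all protein-coding genes, whose windows overlap each other, held 0.0407.

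**Figure D2:**
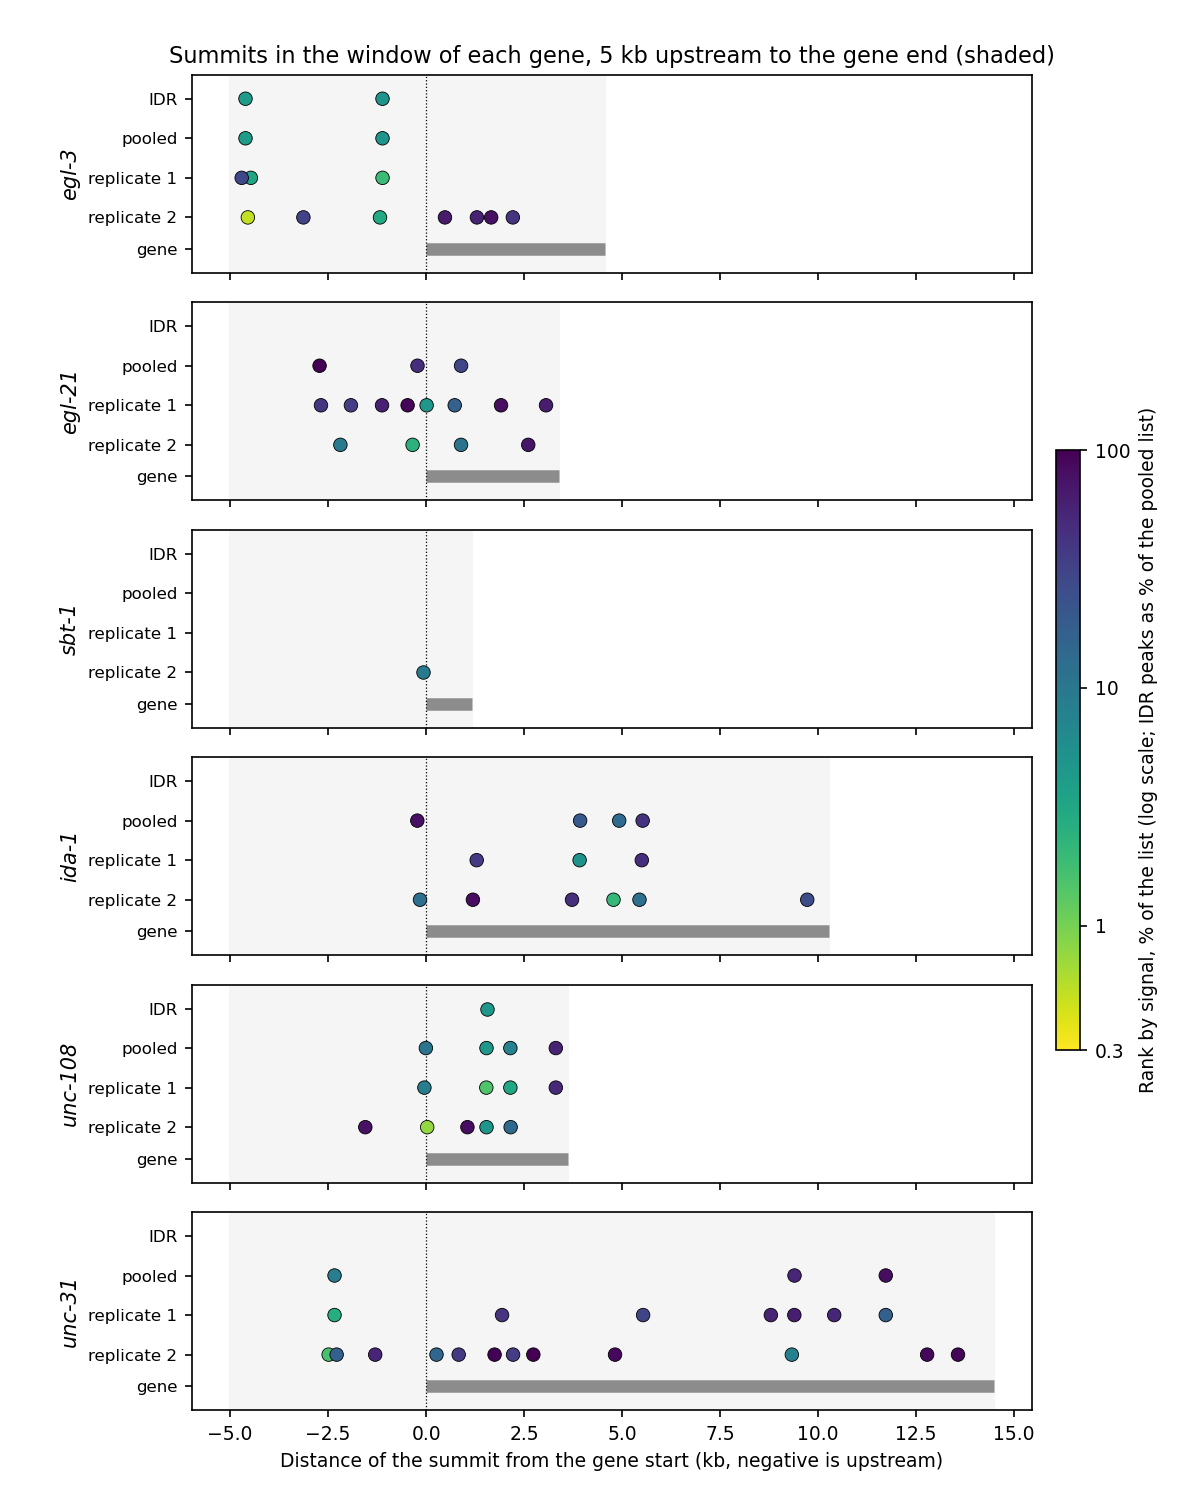
Summits in the window of each gene (shaded) by distance from the gene start in kb, in 1 row per list, coloured by rank as a percentage of the list on a log scale (IDR peaks by their place in the pooled list). The grey bar is the gene. Both pooled regions of egl-3, 3 of the 4 at unc-108 and the one upstream of unc-31 have a region in each replicate. So do others at egl-21, ida-1 and unc-31, making 11 of the 16 pooled regions. The gene sbt-1 has 1 summit, in replicate 2.

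Among the peptide processing genes, egl-3 (chrV:10169177-10173753, minus strand, WBGene00001172) alone had IDR peaks. Its proximal IDR peak, chrV:10174696-10175035, had signal 48.9 and rank 198 of 246, with the summit 1113 bp upstream of the start and outside protein-coding genes. Replicate 1 placed the summit 1112 bp upstream, at signal 30.5 and rank 226 of 11750 (1.92% of the list). Replicate 2 placed it 1177 bp upstream, at signal 16.0 and rank 904 of 30000 (3.01%). The region was therefore high in both lists. The nearest annotated start of any kind was that of the non-coding RNA gene C51E3.12, at 205 bp, and the nearest protein-coding start was egl-3.

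The distal egl-3 peak, chrV:10178192-10178531, was the stronger, with signal 52 and rank 165, but its summit lay 4609 bp from egl-3. It was closer to another gene, 1173 bp upstream of the start of cul-5, a cullin gene, and it lay within the long non-coding RNA gene linc-146. Replicate 2 ranked it 155 of 30000 (signal 23.6). Replicate 1 listed 2 overlapping regions there, at ranks 379 (signal 26.5) and 3426 (signal 16.7). The order of the egl-3 peaks was thus reversed between the replicates, with the proximal one higher in replicate 1 and the distal one in replicate 2. Inside the egl-3 gene there were 4 regions, all in replicate 2, at ranks 12619 to 23506.

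At the carboxypeptidase gene egl-21 (chrIV:10478442-10481844, minus strand, WBGene00001189) no region reached the IDR set. Of its 3 pooled regions, the strongest had signal 28.9 and rank 1209 of 4010, in an intron 892 bp downstream of the start. It was overlapped in both replicates, at rank 1986 in replicate 1 (signal 18.7, 16.9%) and rank 3199 in replicate 2 (signal 12.3, 10.7%). The second had signal 26.4 and rank 1892, 220 bp upstream of the start. The third had signal 22.7 and rank 4000, in an intron of the neighbouring gene ced-5, a cell corpse engulfment gene.

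Around the egl-21 start the replicates listed different regions. In replicate 1 a region with its summit 13 bp inside the gene, in the 5′ UTR, had signal 24.5 and rank 542 of 11750 (4.61%). In replicate 2 a region with its summit 345 bp upstream had signal 16.7 and rank 731 of 30000 (2.44%). These summits lay 233 and 125 bp from the pooled summit, on opposite sides of it, and the regions did not overlap each other. The replicate 1 region that overlapped the one of replicate 2 ranked 10920 (92.9%), so none of these regions at the start was high in both lists.

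At sbt-1 (chrV:20827715-20828881, minus strand, WBGene00011392) the IDR, pooled and replicate 1 lists held 0 regions. Replicate 2 alone had a region, with its summit 85 bp upstream of the start, signal 12.6 and rank 2844 of 30000 (9.48%). The nearest pooled regions lay 41193 bp upstream of the start and 36790 bp beyond the gene end. The window of sbt-1 was the shortest of the 6, and 19% of the 9856 genes with windows of 5 to 7 kb had a pooled region.

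The vesicle gene unc-108 (chrI:3822883-3826514, plus strand, WBGene00006833) had an IDR peak inside the gene rather than upstream. The peak chrI:3824254-3824593 had signal 50.1 and rank 184 of 246, in an intron 1541 bp downstream of the start. Replicate 1 ranked it 176 of 11750 (signal 32.8, 1.5%) and replicate 2 ranked it 1411 of 30000 (signal 14.6, 4.70%). The summits of the replicates lay 5 and 0 bp from the pooled summit.

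The other 3 pooled regions of unc-108 were below the IDR set, whose weakest peak had signal 45.39. The first, in a coding exon 2150 bp downstream of the start, had signal 42.3 and rank 309, and ranked 369 in replicate 1 (signal 26.7) and 4269 in replicate 2 (signal 11.5). The second lay at the start itself, 6 bp upstream, with signal 37.8 and rank 426. It ranked 972 in replicate 1 (signal 21.6, 8.27%) and 230 in replicate 2 (signal 21.5, 0.767%). In replicate 2 the strongest region at unc-108 was therefore at the gene start, and in replicate 1 it was in the intron. The weakest region, in the 3′ UTR, had rank 2308 and was listed in replicate 1 only (rank 6067).

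The other vesicle gene, ida-1 (chrIII:5755539-5765816, plus strand, WBGene00002048), had 4 pooled regions and no IDR peak. Of these, 3 lay in introns, 3930, 4927 and 5526 bp downstream of the start. For these 3 the nearest annotated start of any kind was that of a tRNA gene (WBGene00022899), at 2657, 1660 and 1061 bp. The strongest, chrIII:5760296-5760635 at 4927 bp, had signal 34.9 and rank 541. It was overlapped by a region of replicate 2, at rank 631 (signal 17.1, 2.10%), and by none of replicate 1. The intronic region at 3930 bp, with signal 31.9 and rank 786, ranked 627 in replicate 1 (signal 23.6, 5.34%) and 13386 in replicate 2 (signal 8.29, 44.6%). The strongest regions at ida-1 were thus not the same in the replicates. The region at 5526 bp had signal 26.9 and rank 1728, and ranked 5540 in replicate 1 and 3519 in replicate 2.

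Upstream of ida-1, by 225 bp, lay the weakest of its pooled regions, with signal 23.9 and rank 3127, seen in replicate 2 (rank 3754, signal 11.9) and not in replicate 1. It is the region whose sequence shown above stops within a run of GAGAGA, and 117 bp from its summit is the start of the non-coding RNA gene B0244.14. The handling of reads from such repeats is not stated.

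The release gene unc-31 (chrIV:12773867-12788354, plus strand, WBGene00006767) had its strongest region upstream. The pooled region chrIV:12771360-12771699 had signal 40.5 and rank 347, outside the IDR set, with its summit 2337 bp upstream of the start. Replicate 1 had its summit at the same base, with signal 27.9 and rank 320 of 11750 (2.72%). Replicate 2 had 2 overlapping regions, with signals 18 and 11 at ranks 485 (1.62%) and 5214. The region was thus high in both replicate lists, as the egl-3 peaks were, without being in the IDR set. The other 2 pooled regions lay deep in the gene, in a coding exon 9401 bp and in an intron 11730 bp downstream of the start, with signals 25.7 and 23.7 and ranks 2221 and 3296. The second lay 532 bp from the start of the small nuclear RNA gene ZK897.3.

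**Figure D3:**
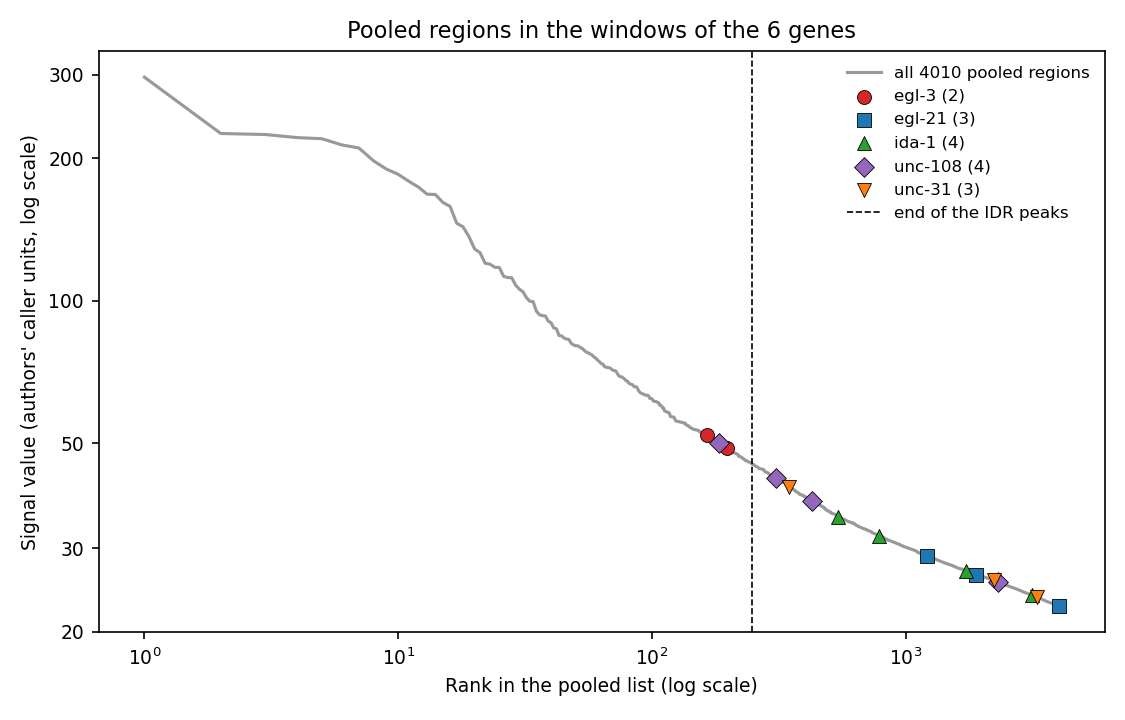
Signal value against rank of all 4010 pooled regions (grey line, both axes log), with the regions of the 6 genes as symbols and the number of regions in brackets. The egl-3 and unc-108 peaks sit at ranks 165 to 198, just before the end of the IDR peaks at rank 246, and the unc-31 upstream region is at rank 347.

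The 3 IDR peaks at these genes fell in the lower part of the IDR set, at signals of 48.9 to 52 against a set median of 56.0 and a highest value of 296. The 16 pooled regions ran from rank 165 to rank 4000, with a median of 997.5 of 4010. The strongest was the distal egl-3 peak and the weakest the one in ced-5. Of the 16 summits, 4 were within 1000 bp of the start of the gene, 7 were upstream and 9 downstream of it. For 5 summits another protein-coding start was nearer. By annotation, 7 lay in introns (43.8%), 6 outside protein-coding genes (37.5%), 2 in coding exons and 1 in a 3′ UTR. Over the whole pooled list introns held 31.6% of summits and positions outside protein-coding genes 46.6%. That list is not limited to gene windows, which leave out positions far from genes, so these shares are not like for like. The counts by position also depend on the window and on gene length, and are given without a share over other genes.

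Of the 16 pooled regions, 11 were overlapped by a region in both replicates, 3 in replicate 1 only and 2 in replicate 2 only. Overlap was with the pooled region, so the best-ranked regions of the replicates need not overlap each other, as upstream of egl-21. Over the whole pooled list, 56.0% were overlapped in both. At the 6 genes replicate 1 listed 25 regions, of which 15 (60.0%) shared at least 1 bp with a replicate 2 region, against 34.4% of its whole list. Replicate 2 listed 35, of which 16 (45.7%) were overlapped by a replicate 1 region, against 13.6%.

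**Figure D4:**
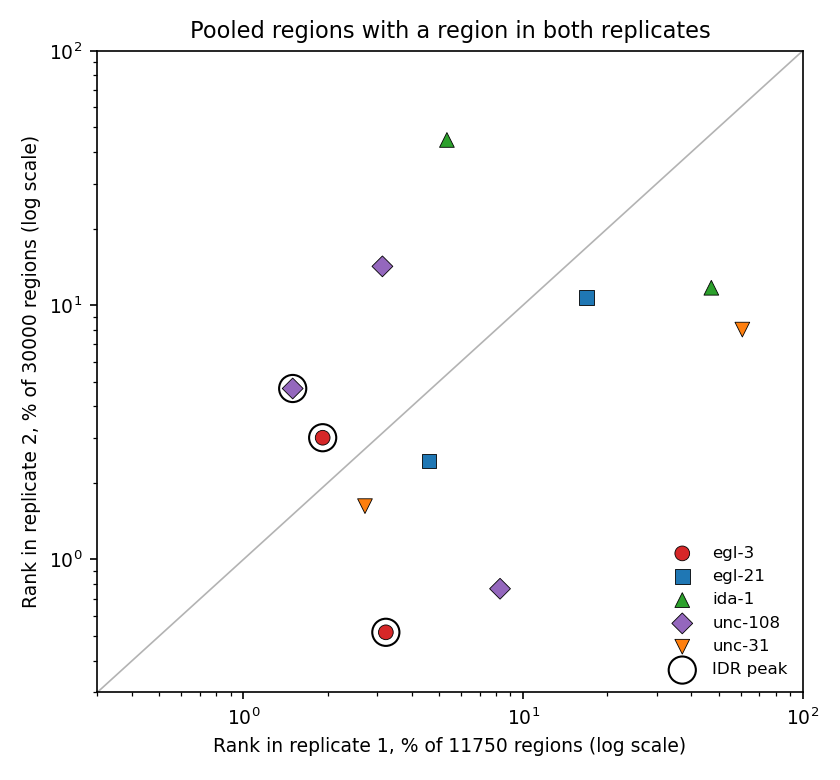
Rank in replicate 1 against rank in replicate 2, each as a percentage of its list on a log axis, for the 11 pooled regions with a region in both. Each rank is that of the best-ranked region overlapping the pooled one, and the replicate regions need not overlap each other. They do not at the egl-21 point at 4.61% against 2.44%. Circles mark the 3 IDR peaks, the line is equal percentage of lists that differ in length and in how much background they hold, and the ida-1 intronic region stands at 5.34% against 44.6%.

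The words searched were those that earlier results of these data had put forward, so their presence here is a description. GAGAGA was in 7 of the 16 summit windows of 201 bases (43.8%), against 20.4% of all pooled windows and 49.6% of IDR windows. CACACA was in 4 of 16, among them all 3 IDR peaks, against 14.6% of pooled and 34.1% of IDR windows. ACGCAG was in 3 (10.5% of pooled windows) and CGTCTC in 2 (12.2%). CGTCTC and ACGCAG overlap by 3 bases in the upstream region of egl-21, where they form 1 run. CAGGTA or CAGGTG, bound by ZEB-type zinc fingers, was in 1 window, an intronic region of ida-1, against 8.73% of pooled and 7.72% of IDR windows. No match means only that these letters are not in that window.

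Base composition differed among the regions. The GC content of the 16 windows ran from 26.9% to 49.8%, with a median of 38%, close to that of the pooled list (37.3%) and below that of the IDR set (47.3%). The proximal egl-3 peak, the unc-108 peak and the unc-31 upstream region were at 48.8%, 48.8% and 49.8%. The weak ida-1 upstream region (rank 3127) was also high, at 49.3%, and the stronger unc-108 exon region (rank 309) was at 36.3%. The distal egl-3 peak, at 31.8%, was below the 5th percentile of the IDR set (34.5%).

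Other genes of peptide secretion, a list of 38 drawn up with earlier results of these data known, had 1 IDR peak. It lay 1270 bp upstream of unc-64, the syntaxin gene, with signal 62.1 and rank 98, so 1 of 38 genes (2.63%) stood against 2.21% of all genes. Pooled regions were at 22 of 38 genes (57.9%), against 25.2% of all genes, with windows that were longer (median 10.7 kb). Among all genes the share was 37.7% for windows of 10 to 15 kb and 53.8% for 15 kb or more. By role the 22 genes were 5 of 8 processing genes, 6 of 12 vesicle biogenesis genes, 2 of 3 transport genes, 9 of 13 release genes and 0 of 2 peptide breakdown genes. At several of the 22, unc-116 and ric-4 among them, the strongest pooled region was nearest to the start of another gene.

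After unc-64, the strongest pooled regions of these genes were at pamn-1, a peptide-amidating enzyme gene (signal 43.3, rank 285, 3114 bp upstream), and cab-1 (42.9, rank 292). The cab-1 region lay in a coding exon 7408 bp downstream of the start, 276 bp from the start of the non-coding RNA gene C23H4.10. Next was kpc-1, a proprotein convertase gene related to egl-3, with signal 41.3 and rank 332, 687 bp upstream. It had 6 pooled regions, more than any of the 6 genes described above. At unc-116, a kinesin heavy chain gene, the region with signal 38.9 and rank 387 lay 29 bp from the start of another gene, R05D3.8. At ric-4, the SNAP-25 gene, and unc-104, the kinesin-3 gene, the strongest regions had signals 34.3 and 33.9 at ranks 581 and 617. The ric-4 region lay 3560 bp upstream of ric-4 but 1772 bp from the start of another gene, Y22F5A.11. The unc-104 region lay 100 bp upstream of unc-104. Regions per kb of window were 0.0753 for the 38 genes in the pooled list, between the 0.237 of the 6 genes and the 0.0407 of all genes.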

How the data were processed

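ChIP-seq peak lists of 2 biological replicates, per the labels, were used, all of 1 group. Per the text listings deposited with them, a replicate list was made from the alignments of that replicate plus a file of unstated content, the pooled list from both alignments and that file, and the IDR list from the other 3 lists. Possible control reads named in the labels were not used here. Sources used here do not give the aligner, caller, IDR threshold or read depth. Signal, as deposited by the authors, is their caller's score per region. The second value, a −log10 q-value deposited by the authors, served as an alternative rank. Lists in the ce10 build were not used, because genes were placed with a ce11 annotation (WBcel235, Ensembl release 115).

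Summits are column 2 plus column 10 of each list, written 1-based. Regions were counted in each gene's window and ranked by signal within a list. All 6 members were found and named. Of the other pathway genes, those with an IDR peak and then the 6 with the strongest pooled region were named. Words were searched within 100 bp of the summit on both strands. The members, lists and words were chosen with earlier results of these data known. The window counts were tested on 20 simulated sets, in which all 40 planted genes of 200 were recovered. Alternatives were other windows, region overlap, the stronger 50% of a list, each replicate alone, a stricter overlap and ranking by q. Computation used Python 3.11.15, numpy 2.4.6, pandas 2.3.3 and matplotlib 3.10.9.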

Additional observations from a re-analysis of the deposited data

How the results depend on the processing

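The count of 2 genes with an IDR peak stayed at egl-3 and unc-108 with windows reaching 2000 or 10000 bp upstream, with any base of the region in the window, and when the 246 strongest regions of replicate 1 or of replicate 2 stood in for the set. The share of all genes in these settings ran from 1.46% (2000 bp) to 3.32% (10000 bp). The count was 1 (unc-108) from gene start to gene end, where 0.305% of all genes had a peak. It was 0 in the stronger 50% of IDR peaks, where 1.10% had one. The regions behind the count differed between replicates: in replicate 1 they were the proximal egl-3 region and the unc-108 intron, in replicate 2 the distal egl-3 region and the unc-108 start. The count of 5 genes with a pooled region ranged from 4 to 6 over its alternatives. It was 4 from gene start to gene end, where 8.87% of all genes had a region. With 10000 bp upstream it was 5, and the share of all genes was 36.1%. Only with the strongest regions of replicate 2 did sbt-1 enter, at a share of 26.2%. Overlapped replicate 1 regions numbered 15 of 25, 12 of 25 with at least 50% of the narrower region, and 12 of 17 in the stronger 50% of each list. Ranked by q in place of signal, 16 of 18 best ranks stayed within 1.5 times. In replicate 2, ida-1 went from 631 to 401 and unc-31 from 485 to 857. With lists of peaks and no read counts, what depth limits at these genes is unknown.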

Other observations

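Just beyond the windows, the nearest pooled regions were close to the gene end at unc-108 (174 bp after it, signal 25.2, rank 2412, nearest to the start of mpc-2) and at ida-1 (663 bp after it, signal 29.3, rank 1129, nearest to cutl-23, a cuticlin-like gene). At egl-21 the next one lay 3878 bp after the gene end, near bgnt-1.1 (rank 2204). Upstream of the 5000 bp limit the nearest pooled region was 12431 bp from the start of egl-21, 17846 bp from unc-31, near the FMRFamide-like peptide gene flp-9 (signal 22.8, rank 3896), and over 30000 bp from the others.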
